A study of Mus musculus with 36 samples.

Results

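The genes of glycolysis and of the transcriptional response to low oxygen were followed across mouse bone-marrow monocytes and the macrophages and dendritic cells grown from them. The set holds 39 genes out of 17599 tested, taken by symbol from a list of glycolytic enzymes, sugar and lactate transporters, pyruvate dehydrogenase kinases and hypoxia response genes. An older symbol, Pkm2, was accepted for Pkm. Where several array probes name the same gene, the brightest was used, and all 39 genes passed the filter on dim probes. The rule uses no measured value, although the list was written with earlier results of these data known.

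Glycolysis splits glucose into pyruvate through hexokinase, phosphofructokinase, aldolase and the enzymes after them, and lactate dehydrogenase turns pyruvate into lactate, which leaves the cell through monocarboxylate transporters. Pyruvate dehydrogenase kinases block the entry of pyruvate into mitochondrial oxidation. When oxygen is low, prolyl hydroxylases of the Egln family stop marking the factor Hif1a for destruction, and the stabilised factor raises many of the same glycolytic genes along with Vegfa, Adm, Bnip3 and the Egln genes. Inflammatory stimuli are known to raise this program in macrophages at normal oxygen as well.

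RNA from 36 mouse samples, 3 for each of 12 groups, was measured on 1-colour Agilent arrays. Monocytes were taken directly from bone marrow by sorting CD11b+ Ly6C+ Ly6G- cells, and every culture but one started from such cells. Regulatory macrophage cultures (Mreg) received 10% human AB serum, 10% FCS and 5 ng/ml M-CSF, the growth factor of macrophages. The other macrophages (MΦ) received 10% FCS and 20 ng/ml M-CSF, with no human serum. Mo-DC, the monocyte-derived dendritic cells, received 10% FCS, 20 ng/ml GM-CSF and 20 ng/ml IL-4.

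All cultures ran for 7 days, with any stimulus in the last 24 h. IFN-γ was given at 25 ng/ml to Mreg, Mreg_unpurified, MΦ_IFN-γ, MΦ_M2b and Mo-DC. Mreg_+LPS and MΦ_M1 received the same IFN-γ together with LPS, which the labels give as 100 µg/ml. MΦ_M2a received 20 ng/ml IL-4, MΦ_M2c received dexamethasone, and MΦ_M2b were grown on dishes coated with human immunoglobulin. Mreg_no IFN-γ and MΦ_M0 had no stimulus. Mreg_unpurified came from adherent mononuclear cells of bone marrow, spleen and blood rather than from sorted monocytes. Mreg and MΦ therefore differ in human serum and in M-CSF dose together, and the strain is not given in the sources used here.

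Values are log2 signals relative to the 75th percentile of the array, so a difference of 1 is a doubling, and a level of one gene cannot be set against that of another. Between 50.1% and 57.6% of probes were well above background on each array. Macrophage markers were above background on all arrays, except Mertk on 2 of 3 monocyte arrays and Adgre1 on 1 of 3 Mreg_unpurified arrays. Mo-DC had the highest summed signal of dendritic cell markers (388 to 605 against 118 to 225 in MΦ_M2a), although Cd209a was not above background there. Monocyte arrays carried 6 of 6 tested markers of neutrophils and granulocyte precursors, with a summed signal of 1749 to 2328 against 0.0758 to 5.31 in the cultured groups. Differences were tested with limma over all genes at an adjusted p of 0.05 (Benjamini-Hochberg), and a difference is followed by its standard error. The labels do not say that samples came from separate animals, so p-values measure the spread between these arrays, which may be technical. In bulk RNA, fewer cells of a type and less RNA per cell cannot be told apart.

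Across the 12 groups the members covered a wide span. The median range of group means was 2.63 on the log2 scale over the 39 members and 1.98 over all genes tested. Slc2a6, a sugar transporter, had the widest range at 9.25, from a mean of -3.74 in Mreg to 5.52 in MΦ_M1. P4ha2, a collagen prolyl hydroxylase subunit, ranged over 9.16, Egln3 over 7.84, the enolase Eno2 over 7.09, the glucose transporter Slc2a3 over 6.16 and Vegfa over 5.35. The narrowest ranges were those of Pdk2 (1.20), Hk1 (1.13) and Egln1 (1.08). Monocytes and MΦ_M2c were lowest for 13 members each, Mreg_+LPS highest for 11 and Mreg_unpurified highest for 10. These ranks depend on how arrays are scaled. Ldha, Gapdh and Aldoa were highest in Mreg_+LPS here, but lower there than in Mreg under quantile normalization.

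**Figure D1:**
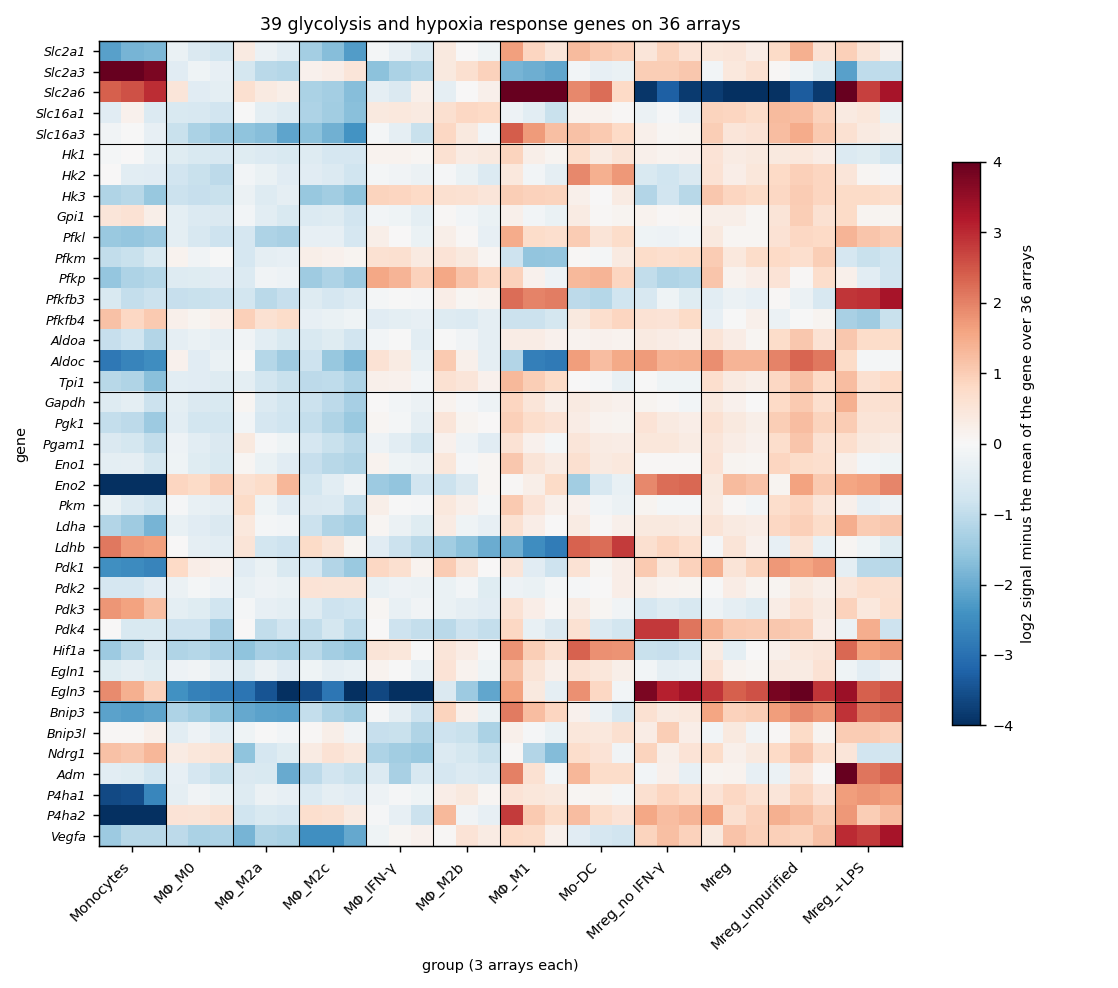
Signal of the 39 members (rows, grouped by role) on 36 arrays (columns, 3 per group), as log2 signal minus the mean of the gene over all arrays; red is above that mean and blue below, with colours capped at 4 on either side. Egln3 is red on all 12 arrays of the Mreg cultures, Slc2a6 is blue on the 9 of them without LPS, and Pfkfb3 is reddest on the arrays with LPS.

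The promoters of the members with the widest ranges are shown because the core of the hypoxia response element, ACGTG or GCGTG, is the sequence that Hif1a complexes are known to recognise. They are RefSeq sequences of build GRCm38.p6, from 250 bases before to 50 bases after the start site and read along the gene, with every ACGTG or GCGTG on either strand in capitals (CACGT and CACGC where the motif lies on the other strand; neighbouring matches can overlap). Slc2a3 is not among the RefSeq promoters used. The sequences are:
Slc2a6 (chr2:27027949-27028248, minus strand): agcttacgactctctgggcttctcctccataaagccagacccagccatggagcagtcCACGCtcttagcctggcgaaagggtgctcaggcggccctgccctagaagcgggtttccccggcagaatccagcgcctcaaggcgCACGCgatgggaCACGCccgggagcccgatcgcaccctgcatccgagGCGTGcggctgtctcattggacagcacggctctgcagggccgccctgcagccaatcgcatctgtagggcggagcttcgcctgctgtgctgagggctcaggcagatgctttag
P4ha2 (chr11:54100674-54100973, plus strand): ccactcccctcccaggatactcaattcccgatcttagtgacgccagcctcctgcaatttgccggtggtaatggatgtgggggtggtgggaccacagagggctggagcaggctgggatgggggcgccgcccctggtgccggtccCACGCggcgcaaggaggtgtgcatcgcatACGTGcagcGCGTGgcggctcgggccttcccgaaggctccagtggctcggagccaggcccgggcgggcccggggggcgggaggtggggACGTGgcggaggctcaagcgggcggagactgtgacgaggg
P4ha1 (chr10:59323046-59323345, plus strand): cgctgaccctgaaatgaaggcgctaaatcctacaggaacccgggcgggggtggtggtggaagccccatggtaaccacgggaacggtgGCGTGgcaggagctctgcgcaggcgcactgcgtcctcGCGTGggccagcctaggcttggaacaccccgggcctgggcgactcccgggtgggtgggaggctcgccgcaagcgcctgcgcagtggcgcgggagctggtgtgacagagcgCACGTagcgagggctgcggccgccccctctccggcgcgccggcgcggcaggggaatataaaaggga
Egln3 (chr12:54203825-54204124, minus strand): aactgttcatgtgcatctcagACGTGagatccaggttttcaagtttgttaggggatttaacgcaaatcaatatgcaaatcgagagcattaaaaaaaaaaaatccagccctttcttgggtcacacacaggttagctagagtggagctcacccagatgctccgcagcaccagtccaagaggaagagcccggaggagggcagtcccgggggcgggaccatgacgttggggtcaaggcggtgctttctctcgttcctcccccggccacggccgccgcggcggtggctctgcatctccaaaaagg
Eno2 (chr6:124769624-124769923, minus strand): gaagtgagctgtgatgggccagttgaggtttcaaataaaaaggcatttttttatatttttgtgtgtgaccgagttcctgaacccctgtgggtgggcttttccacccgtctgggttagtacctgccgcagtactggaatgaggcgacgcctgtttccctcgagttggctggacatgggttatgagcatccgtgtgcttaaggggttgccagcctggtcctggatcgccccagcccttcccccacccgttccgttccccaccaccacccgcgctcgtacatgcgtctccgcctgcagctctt
Vegfa (chr17:46032328-46032627, minus strand): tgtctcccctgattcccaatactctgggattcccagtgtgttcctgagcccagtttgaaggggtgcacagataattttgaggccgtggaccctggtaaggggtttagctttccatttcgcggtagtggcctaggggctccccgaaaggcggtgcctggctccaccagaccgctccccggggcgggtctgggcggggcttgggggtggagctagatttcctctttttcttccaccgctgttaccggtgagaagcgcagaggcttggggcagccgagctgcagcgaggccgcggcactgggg
Vegfa, second start (chr17:46025114-46025413, minus strand): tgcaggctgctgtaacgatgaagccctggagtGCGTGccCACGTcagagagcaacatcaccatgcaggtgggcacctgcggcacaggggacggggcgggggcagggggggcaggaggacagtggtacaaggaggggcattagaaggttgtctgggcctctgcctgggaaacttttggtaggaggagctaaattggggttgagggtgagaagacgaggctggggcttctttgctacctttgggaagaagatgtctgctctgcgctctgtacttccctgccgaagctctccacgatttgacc

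Slc2a6 and P4ha2 each held 4 matches, P4ha1 held 3 and Egln3 held 1, while Eno2 and the first Vegfa start held 0 and the second Vegfa start held 2. Over the members with a RefSeq promoter, 33 of 36 (91.7%) had at least 1 match in some promoter, against 46.7% of 27025 genes. Counted per promoter, 41 of 51 (80.4%) had a match against 43.8% of 32851. Both motifs contain CG, and the median number of CG pairs was 20 in the members' promoters and 7 in all promoters, so the base composition differs along with the motif share. A match is a string of letters and was not tested as a binding site.

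A week in M-CSF changed most of the members, in both directions. Between MΦ_M0 and monocytes, 27 of 39 members (69.2%) passed an adjusted p of 0.05, 16 higher and 11 lower, against 63.4% of all genes tested (30.3% higher and 33.1% lower), so the share of members was close to that of all genes. The median log2 difference was 0.07 over the members and -0.07 over all genes tested. Of 12 genes of upper glycolysis 7 passed as higher and 4 as lower, and of 8 genes of lower glycolysis 3 passed as higher, 1 as lower and 4 did not pass. Of 5 transporters 3 fell and 1 rose. Markers of neutrophil precursors were also far higher on the monocyte arrays, as given above. So were summed markers of T and NK cells (27.0 to 49.9 against at most 1.24 in any culture) and of B and plasma cells (44.6 to 48.6 against at most 6.67). Those of mast cells and basophils were 10.4 to 15.0 against at most 0.905. Summed macrophage, dendritic cell, and erythroid and megakaryocyte markers were lowest in monocytes. The part of all these markers in these differences was not tested.

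Both collagen prolyl hydroxylase subunits rose. P4ha2 read 1.42, 1.39 and 1.53 in MΦ_M0 and -7.01, -7.04 and -6.16 in monocytes, where all 3 arrays were below background, so it was at least 110-fold higher in MΦ_M0 (adjusted p = 7.1e-16). A bound of this kind sets the mean of the brighter group against the lowest signal called above background on each array of the dimmer group. P4ha1 read 2.49, 2.71 and 2.60 against -0.76, -0.68 and 0.25, a difference of 3.00 ± 0.17 (adjusted p = 1e-14). Both subunits were separate between the groups on all arrays.

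Eno2, an enolase best known from neurons, was at -1.68, -1.77 and -1.50 in MΦ_M0 and below background in monocytes (-7.68, -7.23 and -7.48), at least 12.9-fold higher (adjusted p = 1.5e-14). Pdk1, which restrains pyruvate oxidation, read 2.11, 1.57 and 1.47 against -1.14, -1.22 and -1.35, a rise of 2.95 ± 0.30 (adjusted p = 2.4e-09). Slc2a1, the basal glucose transporter, rose from 2.55, 2.85 and 2.92 to 4.46, 4.16 and 3.97, by 1.42 ± 0.27 (adjusted p = 4.8e-05). Each of these had its lowest MΦ_M0 array above its highest monocyte array. Ldha, the muscle-type lactate dehydrogenase, rose by 1.04 ± 0.19 (adjusted p = 3.9e-05), and the mitophagy gene Bnip3 by 0.73 ± 0.28 (adjusted p = 0.023). The Bnip3 call was lost without MΦ_M0 replicate 1 (adjusted p = 0.081) and without either of 2 other arrays.

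In the other direction, Slc2a3, the high-affinity glucose transporter, read -1.41, -1.13 and -1.29 in MΦ_M0 and 3.31, 3.57 and 2.80 in monocytes, a difference of -4.50 ± 0.24 (adjusted p = 3.6e-15). Egln3, the hydroxylase that is itself induced by hypoxia, fell from 0.06, -0.41 and -0.89 to -4.24, -4.51 and -4.63, a difference of -4.05 ± 0.49 (adjusted p = 4.7e-08). Slc2a6 fell from 2.69, 2.85 and 3.26 to 0.81, -0.13 and -0.09, a difference of -2.74 ± 0.33 (adjusted p = 4.9e-08). The 2 groups did not overlap for any of these 3 genes. Ldhb and Pdk3 fell by 4.24-fold and 4.23-fold. Hk2, the inducible hexokinase, fell less, with a difference of -0.61 ± 0.18 (adjusted p = 0.004).

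Several central genes did not pass the test. Differences on the log2 scale were -0.17 for Hif1a (adjusted p = 0.58), -0.08 for Pfkfb3, which makes the activator of phosphofructokinase (adjusted p = 0.63), and 0.06 for Vegfa (adjusted p = 0.82). Pdk4 was below background on every array of all groups but Mreg_no IFN-γ and gets no fold between groups that are both below. Outside the members, 55 further genes of carbohydrate metabolism and hypoxia were tested, of which 16 passed as higher and 23 as lower. Largest among them were falls of Rpia, of the pentose phosphate pathway, by 8.33-fold, of the stress gene Ier3 by 8.31-fold and of the glycogen phosphorylase Pygl by 6.65-fold.

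The Mreg culture carried higher levels of much of the set than M-CSF macrophages given the same IFN-γ. Between Mreg and MΦ_IFN-γ, 22 of 39 members (56.4%) passed an adjusted p of 0.05, 20 higher and 2 lower, against 28.1% of all genes tested (14% higher and 14.1% lower). Over the members the log2 difference had a median of 0.48, against 0.00 over all genes tested. One of the 20, Pdk4, was below background in both groups. All but 1 of the 7 hypoxia response genes outside oxygen sensing were higher, as were 5 of 8 genes of lower glycolysis and 3 of 5 transporters, whereas 8 of 12 genes of upper glycolysis did not pass. The groups lay on different slides. With slide as a random block, 23 members passed.

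Egln3 stood furthest apart. It read 1.03, 0.56 and 0.73 in Mreg and -5.47, -6.52 and -6.19 in MΦ_IFN-γ, a difference of 6.83 ± 0.49 (adjusted p = 1.3e-10), or 114-fold. Only 1 of the 3 MΦ_IFN-γ arrays was above background, so the fold rests partly on signal near background. Eno2 read -2.14, -1.25 and -1.39 against -4.00, -4.09 and -3.29, a difference of 2.20 ± 0.33 (adjusted p = 1e-05). Ndrg1, a stress gene induced by hypoxia, read 3.84, 3.31 and 3.51 against 1.87, 1.74 and 1.62, a difference of 1.81 ± 0.34 (adjusted p = 0.00019). In each case all Mreg arrays lay above all MΦ_IFN-γ arrays.

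Bnip3 was at 4.71, 4.06 and 4.11 in Mreg and 3.10, 2.77 and 2.29 in MΦ_IFN-γ, 1.57 ± 0.28 (adjusted p = 9.5e-05) higher, and its relative Bnip3l was 2.09-fold higher. Vegfa, the angiogenic factor, read 3.58, 4.34 and 4.14 against 3.03, 3.28 and 3.37, 0.79 ± 0.20 (adjusted p = 0.0033) higher. Ldha was 0.60 ± 0.19 (adjusted p = 0.021) higher, Hk2 0.58 ± 0.18 (adjusted p = 0.014) and Slc2a1 0.76 ± 0.27 (adjusted p = 0.036). All 3 of these calls could be lost with 1 array. Ldha lost its call without MΦ_IFN-γ replicate 3 (adjusted p = 0.13) and without 2 other arrays, Hk2 without Mreg replicate 1 (0.062) or MΦ_IFN-γ replicate 3 (0.058), and Slc2a1 without any but 1 of the 6 arrays (up to 0.15). In all, 13 of the 22 calls were kept with each array left out in turn.

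Slc2a6 went the other way. It read -3.48, -3.92 and -3.81 in Mreg and -0.07, -0.26 and 0.53 in MΦ_IFN-γ, a difference of -3.80 ± 0.33 (adjusted p = 2.6e-09), or 14-fold lower, and the groups were far apart. Pfkp, the platelet-type phosphofructokinase, was the other member called lower (-0.76 ± 0.27, adjusted p = 0.036), with overlapping arrays and a call lost without Mreg replicate 2 (adjusted p = 0.19) and without 3 other arrays. Other central genes did not pass, with log2 differences of -0.32 for Hif1a (adjusted p = 0.37), -0.28 for Pfkfb3 (adjusted p = 0.16) and 0.40 for Pdk1 (adjusted p = 0.36). Of the 55 further genes, 16 passed as higher and 6 as lower.

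Those further genes included large differences of the same sign. Hilpda, a lipid droplet gene induced by hypoxia, was 5.13 ± 0.30 (adjusted p = 5e-12) higher in Mreg, and Angptl4, an inhibitor of lipoprotein lipase, 3.92 ± 0.40 (adjusted p = 3.9e-08). Markers of Ly6C monocytes also differed between the cultures. Their summed signal over 4 tested markers was 47.8 to 206 in Mreg and 275 to 296 in MΦ_IFN-γ, and the part of this difference in the results was not tested.

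Without any stimulus the difference between the cultures was also one-sided. Between Mreg_no IFN-γ and MΦ_M0, 25 of 39 members (64.1%) passed an adjusted p of 0.05, 24 higher and 1 lower, against 31% of all genes tested (17.2% higher and 13.7% lower). The median log2 difference was 0.60 over the members and 0.06 over all genes tested. Of 8 genes of lower glycolysis 7 were higher, of 12 of upper glycolysis 7, and of 5 transporters 3. With slide as a random block 26 members passed, and 20 of the 25 calls were kept with each array left out in turn. Neither group of this comparison is shared with that of the IFN-γ-treated cultures. The Mreg groups of both comparisons lay on the same slides, and the macrophage groups on slides different from those and from each other's.

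Egln3 again differed most, at 1.96, 1.27 and 1.55 in Mreg_no IFN-γ and -4.24, -4.51 and -4.63 in MΦ_M0, with all arrays above background and a difference of 6.05 ± 0.49 (adjusted p = 9e-10), or 66.3-fold. Vegfa read 4.08, 4.40 and 4.10 against 2.14, 1.94 and 1.97, 2.18 ± 0.20 (adjusted p = 5.9e-09) higher. Bnip3 was at 3.75, 3.49 and 3.55 against 1.90, 1.75 and 1.50, 1.88 ± 0.28 (adjusted p = 7.8e-06) higher. No array of one group reached the other for these 3 genes. Pdk4, which limits glucose oxidation and is known from fasting, was above background only in Mreg_no IFN-γ, at -4.06, -4.05 and -4.73. There it was at least 2.58-fold higher than in MΦ_M0 (-7.71, -7.71 and -8.22; adjusted p = 4.8e-07), and under the normexp background correction the adjusted p was 0.67.

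Slc2a1 read 5.22, 5.61 and 5.27 against 4.46, 4.16 and 3.97, 1.17 ± 0.27 (adjusted p = 0.0015) higher, and Ldha read 8.28, 8.27 and 8.23 against 7.60, 7.43 and 7.32, 0.81 ± 0.19 (adjusted p = 0.002) higher. Pfkfb3 was 0.45 ± 0.14 (adjusted p = 0.019) higher, a call lost without Mreg_no IFN-γ replicate 2 (adjusted p = 0.14) or MΦ_M0 replicate 1 (0.051). Hif1a (0.35, adjusted p = 0.32), Pdk1 (0.39, adjusted p = 0.36) and Hk2 (0.23, adjusted p = 0.35) did not pass. The single member called lower was Slc2a6, at -3.58, -2.96 and -3.53 against 0.81, -0.13 and -0.09, a difference of -3.56 ± 0.33 (adjusted p = 8.6e-09). Gapdh was called higher (0.54 ± 0.20, adjusted p = 0.045) but lost the call without any 1 of the 6 arrays (adjusted p up to 0.13), and Eno1 without all but 1 of them (up to 0.17).

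Among the 55 further genes 23 passed as higher and 3 as lower. Hilpda was 4.87 ± 0.30 (adjusted p = 1.4e-11) higher and Angptl4 3.26 ± 0.40 (adjusted p = 5.4e-07). The Ly6C monocyte markers summed to 0.472 to 0.88 in Mreg_no IFN-γ and 11.9 to 32.6 in MΦ_M0, and their part was not tested.

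**Figure D2:**
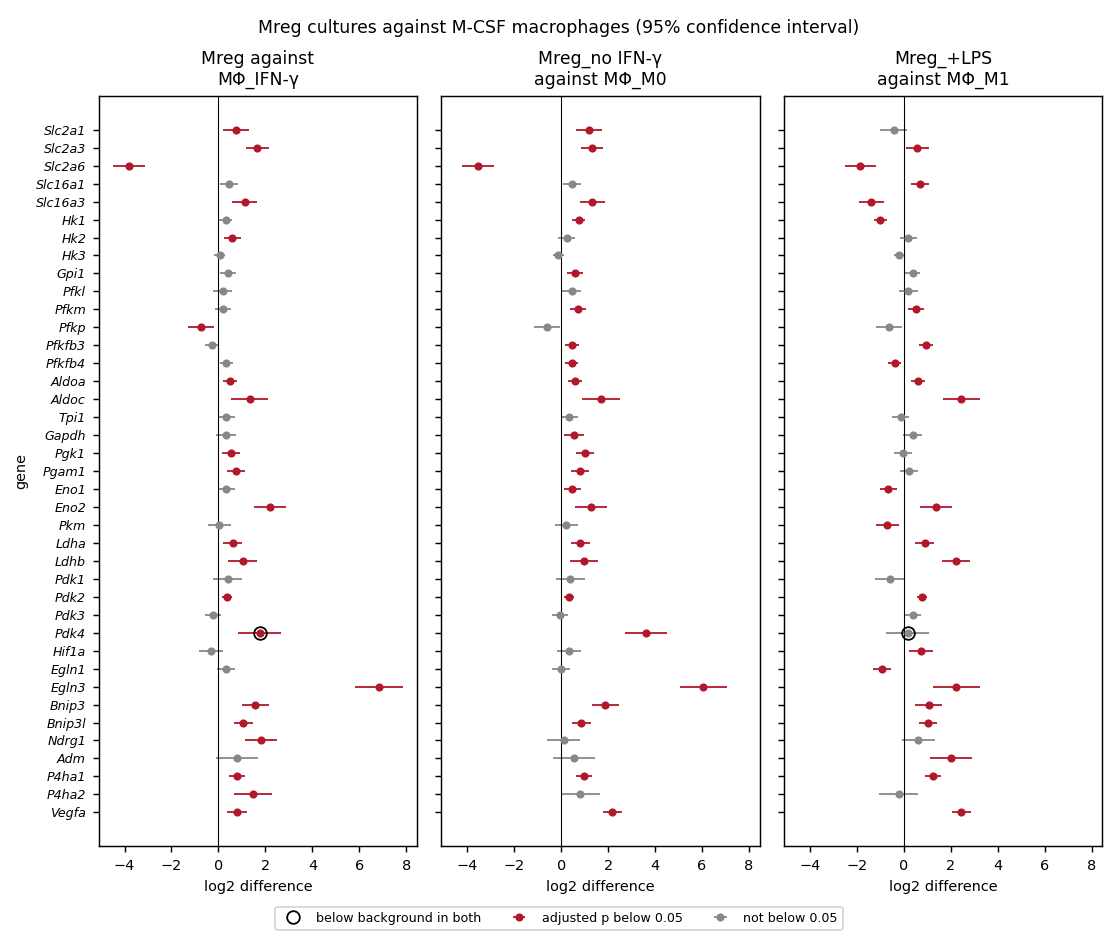
Log2 difference of each member (rows) between an Mreg culture and the M-CSF macrophages given the same stimulus, with the 95% confidence interval from limma; red marks an adjusted p below 0.05, grey the rest, and a ring marks a gene below background in both groups. Points lie mostly to the right of 0 in the first 2 panels, with Slc2a6 at -3.80 and -3.56 and Egln3 at 6.83 and 6.05, while the LPS panel holds members on both sides.

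**Figure D3:**
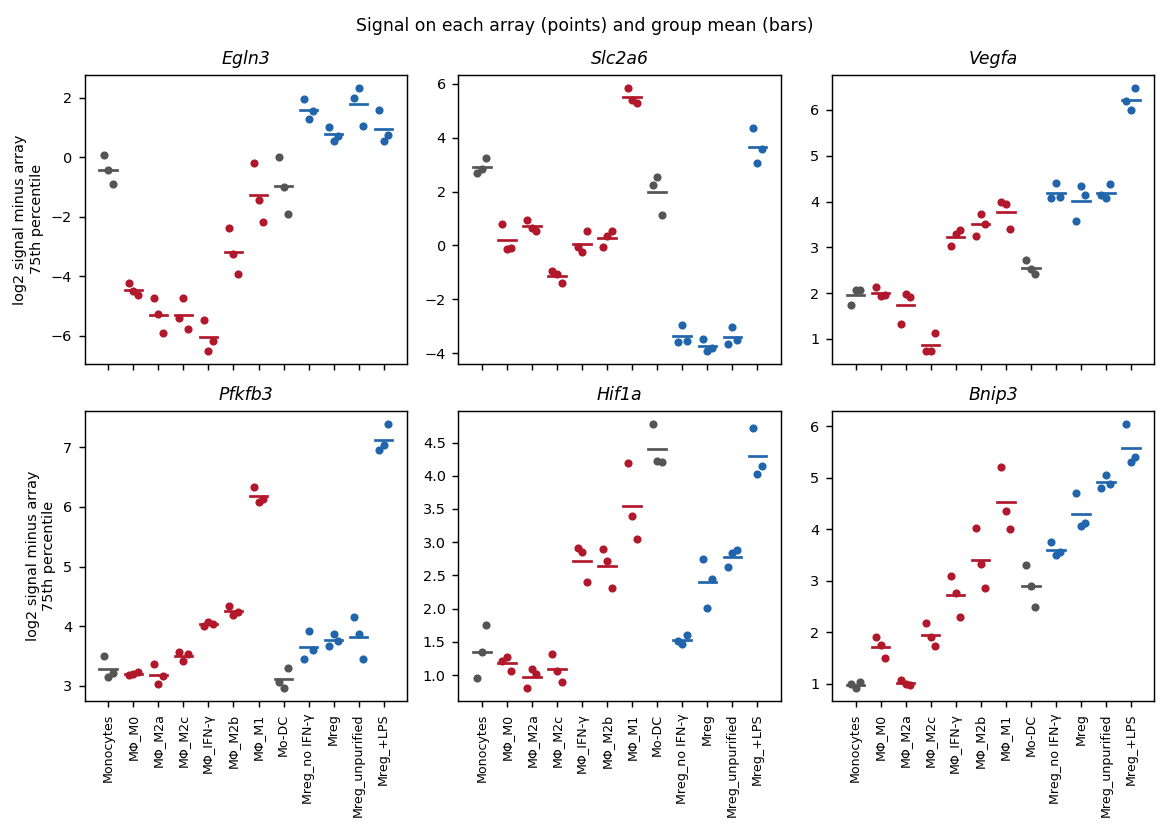
Log2 signal relative to the 75th percentile of the array for 6 members on each of the 36 arrays (points, 3 per group), with bars for group means; blue marks Mreg cultures, red M-CSF macrophages, and grey monocytes and Mo-DC. All Egln3 points of the Mreg cultures lie at or above 0.56, and Pfkfb3 stands above 6 only in MΦ_M1 and Mreg_+LPS.

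IFN-γ alone raised members that included Hk2, Hk3, Pfkp, Slc16a1 and Hif1a in both cultures and lowered Eno2 among others. In M-CSF macrophages (MΦ_IFN-γ against MΦ_M0), 19 of 39 members (48.7%) passed an adjusted p of 0.05, 13 higher and 6 lower, against 22.2% of all genes tested (11.1% higher and 11.2% lower). The median log2 difference was 0.29 over the members and -0.01 over all genes tested. MΦ_IFN-γ and MΦ_M0 lay on different slides, so IFN-γ and slide cannot be told apart there. Of 12 genes of upper glycolysis 8 were higher and 1 lower, and of 8 genes of lower glycolysis 0 were higher and 1 lower. In the Mreg culture (Mreg against Mreg_no IFN-γ), 11 of 39 members (28.2%) passed an adjusted p of 0.05, 7 higher and 4 lower, against 20.5% of all genes tested (9.5% higher and 11% lower), and the median over members was 0.02 against -0.06 over all genes tested. There 4 of 12 genes of upper glycolysis were higher and 1 lower, and 7 did not pass.

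Hk3, the hexokinase of blood cells, rose from 5.79, 5.75 and 5.77 to 7.56, 7.53 and 7.45 in M-CSF macrophages, by 1.74 ± 0.11 (adjusted p = 3e-12). In the Mreg culture it rose from 5.48, 5.89 and 5.56 to 7.74, 7.52 and 7.43, by 1.92 ± 0.11 (adjusted p = 4.6e-13). Treated and untreated arrays were well separated in both. Pfkp rose from 2.87, 2.88 and 2.93 to 4.93, 4.75 and 4.30, by 1.76 ± 0.27 (adjusted p = 1.6e-05), and in the Mreg culture from 2.39, 2.18 and 2.26 to 4.50, 3.54 and 3.65, by 1.62 ± 0.27 (adjusted p = 6.7e-05). Across comparisons, the log2 difference of another Pfkp probe departed from that of the probe used here by up to 2.65.

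Hk2 rose from 3.90, 3.78 and 3.63 to 4.60, 4.54 and 4.42, by 0.75 ± 0.18 (adjusted p = 0.0023), and from 4.05, 3.87 and 4.09 to 5.24, 4.93 and 5.12, by 1.09 ± 0.18 (adjusted p = 4.3e-05). The lactate and pyruvate transporter Slc16a1 rose by 1.06 ± 0.18 (adjusted p = 7.8e-05) and 1.02 ± 0.18 (adjusted p = 0.00016). Hif1a rose from 1.21, 1.27 and 1.07 to 2.91, 2.85 and 2.40 in M-CSF macrophages, by 1.54 ± 0.25 (adjusted p = 2.8e-05). In the Mreg culture it rose from 1.51, 1.47 and 1.60 to 2.75, 2.01 and 2.44, by 0.87 ± 0.25 (adjusted p = 0.012), a call lost without Mreg replicate 1 (adjusted p = 0.094). Treated arrays lay above untreated ones for these genes in each culture.

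Other rises were called in M-CSF macrophages and not in Mreg, which does not show that they differ. Pfkfb3 rose from 3.19, 3.20 and 3.24 to 4.01, 4.07 and 4.04, by 0.84 ± 0.14 (adjusted p = 7.2e-05), and in the Mreg culture the difference was 0.11 ± 0.14 (adjusted p = 0.7). Bnip3 rose by 1.00 ± 0.28 (adjusted p = 0.0086), a call lost without MΦ_IFN-γ replicate 1 (adjusted p = 0.069), against 0.69 ± 0.28 (adjusted p = 0.083) in Mreg, where the replicate block gave an adjusted p of 0.0089. Tested directly as the IFN-γ response of Mreg minus that of M-CSF macrophages, 1 member of 39 (2.56%) passed, against 1.65% of all genes tested (1.19% higher and 0.466% lower). It was Vegfa, with a difference of -1.39 ± 0.28 (adjusted p = 0.0092). The call was kept with each array left out in turn, but not under every alternative processing. Across comparisons, the log2 difference of another Vegfa probe departed from that of the probe used here by up to 1.74. Mreg and Mreg_no IFN-γ shared their slides and MΦ_IFN-γ and MΦ_M0 did not, so IFN-γ and slide cannot be told apart in the latter. Vegfa rose from 2.14, 1.94 and 1.97 to 3.03, 3.28 and 3.37 in M-CSF macrophages and read 4.08, 4.40 and 4.10 without and 3.58, 4.34 and 4.14 with IFN-γ in the Mreg culture, where it was already high. For Pfkfb3 the direct test gave -0.73 ± 0.20 (adjusted p = 0.069) and for Hif1a -0.67 ± 0.35 (adjusted p = 0.49).

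Falls with IFN-γ were led by Eno2. It fell from -1.68, -1.77 and -1.50 to -4.00, -4.09 and -3.29 in M-CSF macrophages, by 2.14 ± 0.33 (adjusted p = 1.5e-05), and from -0.59, -0.31 and -0.24 to -2.14, -1.25 and -1.39 in Mreg, by 1.21 ± 0.33 (adjusted p = 0.0083). The second call was lost without Mreg replicate 1 (adjusted p = 0.081). Ndrg1 fell in M-CSF macrophages from 3.45, 3.58 and 3.63 to 1.87, 1.74 and 1.62, a difference of -1.81 ± 0.34 (adjusted p = 0.0002), and the values in Mreg differed by -0.11 ± 0.34 (adjusted p = 0.89). Egln3 fell in M-CSF macrophages from -4.24, -4.51 and -4.63 to -5.47, -6.52 and -6.19, a difference of -1.60 ± 0.49 (adjusted p = 0.017) near background, with the call lost without MΦ_IFN-γ replicate 2 (adjusted p = 0.088) or 2 other arrays. In Mreg it differed by -0.82 ± 0.49 (adjusted p = 0.28).

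Pdk4 fell in the Mreg culture from -4.06, -4.05 and -4.73 to -5.48, -5.82 and -5.87, below background, so it was at least 2.38-fold lower (adjusted p = 0.018), a call lost without Mreg_no IFN-γ replicate 2 (adjusted p = 0.069) or 2 other arrays. Slc2a1, Ldha and Pdk1 did not pass in either culture. Their differences were 0.17, 0.23 and 0.13 in M-CSF macrophages (adjusted p = 0.76, 0.48 and 0.85) and -0.23, 0.02 and 0.14 in Mreg (0.64, 0.96 and 0.84). Of 19 calls in M-CSF macrophages 12 were kept with each array left out, and of 11 in Mreg 5, where the count fell to 6 without Mreg replicate 1 and to 7 without Mreg_no IFN-γ replicate 2. Vegfa in Mreg differed by -0.17 ± 0.20 (adjusted p = 0.63).

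Of the 55 further genes, 10 passed as higher and 9 as lower in M-CSF macrophages and 6 higher and 10 lower in Mreg. Cited2, which competes with Hif1a for a coactivator, was 1.69 ± 0.21 (adjusted p = 8.9e-07) and 1.27 ± 0.21 (adjusted p = 6.9e-05) higher with IFN-γ, and Ankrd37 differed by -1.57 ± 0.28 (adjusted p = 0.0001) and -1.23 ± 0.28 (adjusted p = 0.0018). In M-CSF macrophages the repressor Bhlhe40 differed by -2.38 ± 0.29 (adjusted p = 4.2e-07), and in Mreg the glycogen branching enzyme Gbe1 by -1.11 ± 0.18 (adjusted p = 4.4e-05). The comparisons in the 2 cultures share no samples. Summed Ly6C monocyte markers rose with IFN-γ as well, from 11.9 to 32.6 in MΦ_M0 to 275 to 296 in MΦ_IFN-γ and from 0.472 to 0.88 in Mreg_no IFN-γ to 47.8 to 206 in Mreg, and their part in these results was not tested.

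LPS on top of IFN-γ changed more members than any other stimulus, and it also changed more of all genes tested. In Mreg the share of members was not far above that of all genes. In M-CSF macrophages (MΦ_M1 against MΦ_IFN-γ), 31 of 39 members (79.5%) passed an adjusted p of 0.05, 23 higher and 8 lower, against 51.2% of all genes tested (27.9% higher and 23.4% lower). The median log2 difference was 0.57 over the members and 0.12 over all genes tested. MΦ_M1 and MΦ_IFN-γ lay on different slides, so LPS and slide cannot be told apart there. All 3 oxygen sensing genes, 6 of 7 other hypoxia response genes and 6 of 8 genes of lower glycolysis were higher. In Mreg (Mreg_+LPS against Mreg), 26 of 39 members (66.7%) passed an adjusted p of 0.05, 16 higher and 10 lower, against 57.5% of all genes tested (32% higher and 25.5% lower), and the median over members, 0.15, was no higher than the 0.17 over all genes tested. One of the 10 lower, Pdk4, was below background in both groups. Summed macrophage markers were 319 to 343 in Mreg and 585 to 757 in Mreg_+LPS. They were 357 to 391 in MΦ_IFN-γ and 680 to 743 in MΦ_M1, and their part was not tested.

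The split in Mreg depends on how arrays are scaled. With quantile normalization, or in the authors' series table, 12 members were higher and 20 lower in Mreg. The median difference with LPS over all genes was 0.17 under the scaling used here and -0.02 under the quantile scaling. In all, 7 members changed sign there, namely the glycolytic enzymes Gpi1, Aldoa, Tpi1, Gapdh, Pgk1 and Pgam1, and Ldha. Differences such as 0.79 for Ldha, 0.69 for Gapdh and 0.56 for Aldoa became -0.05, -0.03 and -0.08. In M-CSF macrophages the split became 19 higher and 10 lower, with Hk3, Gpi1 and Aldoa changing sign. Of the genes described next, Ldha in Mreg is the one that changed sign with the scaling.

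Slc2a6 rose most in both cultures. It went from -3.48, -3.92 and -3.81 to 4.36, 3.05 and 3.60 in Mreg, by 7.40 ± 0.33 (adjusted p = 9.4e-16), or 169-fold. In M-CSF macrophages it went from -0.07, -0.26 and 0.53 to 5.86, 5.42 and 5.27, by 5.45 ± 0.33 (adjusted p = 3.5e-13), or 43.6-fold. Pfkfb3 rose from 3.66, 3.87 and 3.76 to 6.95, 7.03 and 7.38, by 3.35 ± 0.14 (adjusted p = 5.9e-16), and from 4.01, 4.07 and 4.04 to 6.33, 6.08 and 6.13, by 2.14 ± 0.14 (adjusted p = 2.7e-12). For both genes LPS arrays and arrays without LPS were far apart.

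Of the oxygen sensing genes in Mreg, 1 of 3, Hif1a, rose with LPS, and 5 of 7 other hypoxia response genes did, P4ha2 and Ndrg1 being the exceptions. Egln1, a prolyl hydroxylase that marks Hif1a for destruction, fell in Mreg, with a difference of -0.54 ± 0.19 (adjusted p = 0.015) and the call lost without Mreg replicate 1 (adjusted p = 0.11) or 1 other array. In M-CSF macrophages it rose by 0.69 ± 0.19 (adjusted p = 0.0029). Hif1a rose from 2.75, 2.01 and 2.44 to 4.71, 4.02 and 4.14 in Mreg, by 1.89 ± 0.25 (adjusted p = 2.6e-07), and from 2.91, 2.85 and 2.40 to 4.20, 3.39 and 3.05 in M-CSF macrophages, by 0.82 ± 0.25 (adjusted p = 0.0068), the latter call lost without MΦ_M1 replicate 1 (adjusted p = 0.094). Vegfa rose from 3.58, 4.34 and 4.14 to 6.19, 6.00 and 6.49, by 2.21 ± 0.20 (adjusted p = 3.4e-10). In M-CSF macrophages it went from 3.03, 3.28 and 3.37 to 3.98, 3.94 and 3.41, a small rise of 0.55 ± 0.20 (adjusted p = 0.022) that lost its call with quantile normalization (adjusted p = 0.22) and without MΦ_IFN-γ replicate 1 (0.10) or 2 other arrays. Adm, which encodes the vessel-relaxing peptide adrenomedullin, rose in Mreg from -3.98, -3.96 and -4.44 to -0.10, -1.96 and -1.75, by 2.86 ± 0.43 (adjusted p = 2.6e-06), and in M-CSF macrophages by 1.66 ± 0.43 (adjusted p = 0.0021). Bnip3 rose by 1.29 ± 0.28 (adjusted p = 0.00027) in Mreg and by 1.80 ± 0.28 (adjusted p = 4.8e-06) in M-CSF macrophages, and its arrays did not overlap in either.

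Egln3 and Slc16a3 rose with LPS in M-CSF macrophages. Egln3 went from -5.47, -6.52 and -6.19, near background, to -0.21, -1.43 and -2.17, by 4.79 ± 0.49 (adjusted p = 5.5e-09), while in Mreg it read 1.03, 0.56 and 0.73 without and 1.59, 0.56 and 0.74 with LPS (0.19 ± 0.49, adjusted p = 0.76). Slc16a3, the lactate exporter of glycolytic cells, rose from 4.75, 4.46 and 3.92 to 7.26, 6.52 and 6.02, by 2.22 ± 0.26 (adjusted p = 7.1e-08), against -0.28 ± 0.26 (adjusted p = 0.38) in Mreg. Slc2a1 rose from 4.65, 4.39 and 4.07 to 6.35, 5.59 and 5.19, by 1.34 ± 0.27 (adjusted p = 0.00016), against 0.14 ± 0.27 (adjusted p = 0.68) in Mreg. For these 3 genes the arrays of MΦ_M1 lay above those of MΦ_IFN-γ, and those of Mreg with and without LPS overlapped.

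Several genes fell with LPS in both cultures. Pfkm, the muscle-type phosphofructokinase, fell from 1.51, 1.55 and 1.25 to 0.08, -0.66 and -0.65, a difference of -1.84 ± 0.17 (adjusted p = 1.2e-09), and from 1.91, 1.33 and 1.66 to 0.22, 0.00 and 0.12, a difference of -1.52 ± 0.17 (adjusted p = 2.5e-08). Aldoc, a brain-type aldolase, fell from 0.66, 0.40 and -0.21 to -1.10, -2.63 and -2.75, a difference of -2.45 ± 0.39 (adjusted p = 7.9e-06), and by 2.49-fold in Mreg. Pdk1 fell in Mreg from 2.72, 1.80 and 2.20 to 0.94, 0.22 and 0.20, a difference of -1.79 ± 0.30 (adjusted p = 1.3e-05). In M-CSF macrophages Pdk1 differed by -0.80 ± 0.30 (adjusted p = 0.029), with overlapping arrays and a call lost without MΦ_M1 replicate 3 (adjusted p = 0.19) or 3 other arrays.

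Slc2a3 read -1.07, -0.54 and -0.37 in Mreg and -3.13, -1.98 and -1.99 with LPS, a difference of -1.70 ± 0.24 (adjusted p = 6.9e-07). Its other probes are dim, and the mean of all probes gave no call there. Ldhb, the heart-type lactate dehydrogenase, fell in M-CSF macrophages from 2.03, 1.61 and 1.39 to 0.53, -0.01 and -0.31, a difference of -1.61 ± 0.29 (adjusted p = 4.7e-05). Ldha went from 8.40, 8.25 and 8.19 to 9.34, 8.91 and 8.96 in Mreg and from 7.98, 7.65 and 7.40 to 8.50, 8.17 and 7.90 in M-CSF macrophages, by 0.79 ± 0.19 (adjusted p = 0.0011) and 0.51 ± 0.19 (adjusted p = 0.031). The second call was lost without MΦ_M1 replicate 1 (adjusted p = 0.18) or 3 other arrays, and both under quantile normalization. Hk2 did not pass in either culture (-0.26, adjusted p = 0.21, and 0.12, adjusted p = 0.59).

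The LPS responses of the cultures were compared directly as the response of Mreg minus that of M-CSF macrophages. Here 17 of 39 members (43.6%) passed an adjusted p of 0.05, 7 higher and 10 lower, against 35% of all genes tested (18.5% higher and 16.5% lower). Over the members the log2 difference had a median of -0.24, against 0.04 over all genes tested. The split was 4 higher and 17 lower with quantile normalization and 3 higher and 9 lower with normexp. Mreg and Mreg_+LPS lay on the same slides, whereas MΦ_M1 and MΦ_IFN-γ lay on different ones. In the M-CSF part of this difference, LPS and slide therefore cannot be told apart. Pdk4 was one of the 10 but was below background in all 4 groups. Lower in Mreg were the responses of Egln3 (-4.60 ± 0.69, adjusted p = 8.6e-06), Slc16a3 (-2.50 ± 0.37, adjusted p = 7.4e-06), P4ha2 (-1.70 ± 0.56, adjusted p = 0.019), Hk1 (-1.32 ± 0.19, adjusted p = 5.1e-06) and Slc2a1 (-1.20 ± 0.38, adjusted p = 0.015).

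P4ha2 read 2.49, 1.53 and 1.79 in Mreg and 2.61, 1.86 and 2.11 with LPS, against 0.82, 0.53 and 0.01 in MΦ_IFN-γ and 3.68, 1.93 and 1.65 in MΦ_M1. Responses higher in Mreg were those of Slc2a6 (1.96 ± 0.47, adjusted p = 0.0017), Vegfa (1.66 ± 0.28, adjusted p = 3.8e-05), Pfkfb3 (1.22 ± 0.20, adjusted p = 3.5e-05) and Hif1a (1.07 ± 0.35, adjusted p = 0.018). The Slc2a6 call was not made with normexp (adjusted p = 0.32), and Hif1a lost its call without MΦ_M1 replicate 3 (0.074) or 2 other arrays and with quantile normalization (0.051). P4ha2 lost it without MΦ_M1 replicate 1 (0.09) or 2 other arrays, and Slc2a1 without MΦ_M1 replicate 1 (0.069). The responses of Bnip3 (-0.51 ± 0.39, adjusted p = 0.35), Ldha (0.28 ± 0.28, adjusted p = 0.47), Hk2 (-0.38 ± 0.25, adjusted p = 0.26) and Pdk1 (-0.99 ± 0.43, adjusted p = 0.075) did not pass.

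**Figure D4:**
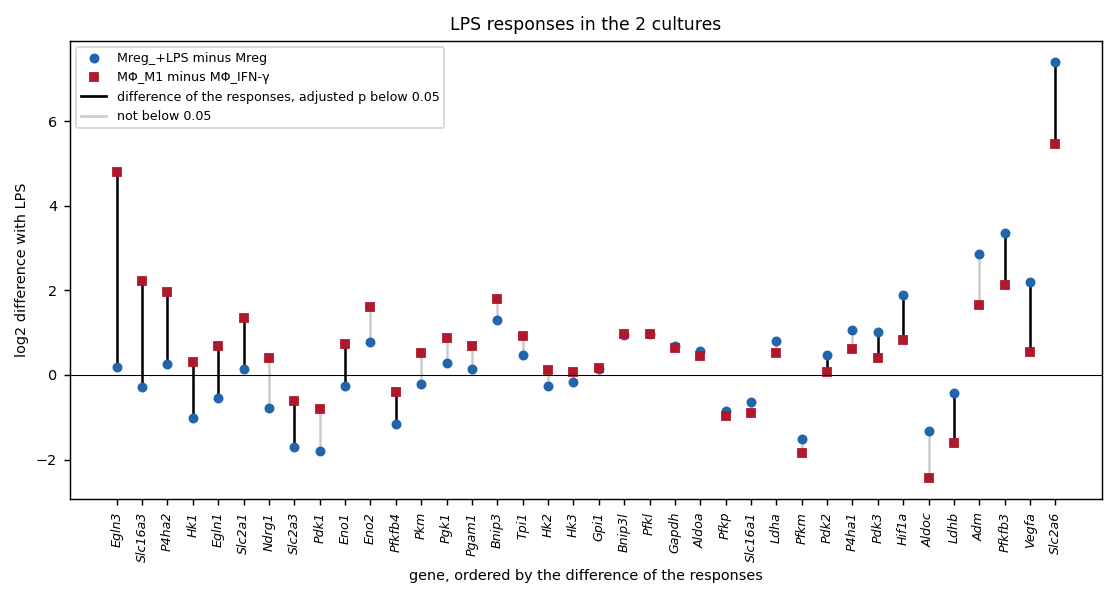
Log2 difference with LPS for 38 members (Pdk4, below background in all 4 groups, is left out), in Mreg (blue circles) and in M-CSF macrophages (red squares), each over IFN-γ alone and ordered by the difference of the responses; a black line joins the points where that difference had an adjusted p below 0.05. Egln3 stands at the left with 0.19 in Mreg and 4.79 in M-CSF macrophages, and Slc2a6 at the right with 7.40 and 5.45.

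With LPS present in both cultures, the members no longer lay so far to one side. Between Mreg_+LPS and MΦ_M1, 24 of 39 members (61.5%) passed an adjusted p of 0.05, 17 higher and 7 lower, against 54.5% of all genes tested (29.4% higher and 25.1% lower), and under quantile normalization the split was 16 higher and 12 lower. Over the members the log2 difference had a median of 0.37, against 0.05 over all genes tested. Vegfa read 6.19, 6.00 and 6.49 in Mreg_+LPS and 3.98, 3.94 and 3.41 in MΦ_M1, 2.45 ± 0.20 (adjusted p = 5.9e-11) higher. Aldoc read 0.86, 0.02 and -0.01 against -1.10, -2.63 and -2.75, 2.45 ± 0.39 (adjusted p = 5.9e-06) higher, and Egln3 read 1.59, 0.56 and 0.74 against -0.21, -1.43 and -2.17, 2.23 ± 0.49 (adjusted p = 0.00033) higher. The groups did not overlap for these 3 genes. Mreg_+LPS and MΦ_M1 lay on different slides. With slide as a random block 24 members passed, against 54.7% of all genes tested. In a fit of these 6 arrays alone 15 passed, against 44.7%. Summed dendritic cell markers were 22.1 to 46.4 in Mreg_+LPS and 5.34 to 14.8 in MΦ_M1, and Ly6C monocyte markers 58.6 to 226 and 275 to 339. Their part was not tested.

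Ldhb was 4.66-fold and Adm 4.00-fold higher. Bnip3 (1.06 ± 0.28, adjusted p = 0.002), Pfkfb3 (0.94 ± 0.14, adjusted p = 3.3e-06) and Ldha (0.89 ± 0.19, adjusted p = 0.00034) were also called higher, and so was Hif1a (0.75 ± 0.25, adjusted p = 0.012), whose arrays overlapped and whose call was lost without MΦ_M1 replicate 3 (adjusted p = 0.12) or Mreg_+LPS replicate 1 (0.097). Slc2a6 read 4.36, 3.05 and 3.60 against 5.86, 5.42 and 5.27, a difference of -1.85 ± 0.33 (adjusted p = 2.9e-05), again lower in the Mreg culture. Slc16a3 read 5.42, 5.19 and 5.04 against 7.26, 6.52 and 6.02, a difference of -1.38 ± 0.26 (adjusted p = 6.1e-05), and Hk1, the constitutive hexokinase, read 4.23, 4.30 and 4.06 against 5.68, 5.04 and 4.91, a difference of -1.01 ± 0.13 (adjusted p = 3.6e-07). Slc2a1 (-0.44, adjusted p = 0.18), Pdk1 (-0.59, adjusted p = 0.11) and Hk2 (0.20, adjusted p = 0.38) did not pass.

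Of the 55 further genes, 28 passed as higher and 13 as lower with LPS in M-CSF macrophages, 21 passed as higher and 11 as lower in Mreg, and 25 passed as higher and 11 as lower between the LPS-treated cultures. Angptl4 differed with LPS by -5.44 ± 0.40 (adjusted p = 1.2e-11) in M-CSF macrophages and -3.32 ± 0.40 (adjusted p = 6.6e-08) in Mreg, and was 6.04 ± 0.40 (adjusted p = 1.4e-12) higher in Mreg_+LPS than in MΦ_M1. Txnip, which restrains glucose uptake, differed with LPS by -4.96 ± 0.25 (adjusted p = 7e-15) in Mreg. Hilpda rose by 3.42 ± 0.30 (adjusted p = 4.3e-10) in M-CSF macrophages. These comparisons share the groups MΦ_IFN-γ, Mreg, MΦ_M1 and Mreg_+LPS, so their values are not independent of each other or of the comparison of Mreg with MΦ_IFN-γ.

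Few members passed with IL-4. Between MΦ_M2a and MΦ_M0, 5 of 39 members (12.8%) passed an adjusted p of 0.05, 3 higher and 2 lower, against 12.6% of all genes tested (6.84% higher and 5.78% lower), the same share as the background in the main fit. The median log2 difference was -0.02 over the members and 0.06 over all genes tested. Samples of the same series number lay on the same slide and deviated together. With that number as a block 11 of 39 members passed, against 17% of all genes tested. The split was 3 higher and 7 lower with quantile normalization, where 13.4% of all genes tested passed. Ndrg1 read 1.50, 2.43 and 2.62 in MΦ_M2a and 3.45, 3.58 and 3.63 in MΦ_M0, a difference of -1.37 ± 0.34 (adjusted p = 0.007), lost without MΦ_M2a replicate 1 (adjusted p = 0.085). P4ha2 read 0.09, 0.27 and 0.22 against 1.42, 1.39 and 1.53, a difference of -1.25 ± 0.40 (adjusted p = 0.036), lost without any 1 of the 6 arrays (up to 0.12). Neither gene overlapped between groups.

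Hk2 was the central gene called higher, from 3.90, 3.78 and 3.63 to 4.55, 4.39 and 4.20, by 0.61 ± 0.18 (adjusted p = 0.021), a call lost without MΦ_M2a replicate 1 (adjusted p = 0.12) or 3 other arrays. Without that array 2 members passed, and without any of MΦ_M0 replicate 2, MΦ_M0 replicate 3 and MΦ_M2a replicate 2, 3 passed. Hk3 (1.43-fold) and Pfkfb4 (1.50-fold) were the others called higher. Not called were Slc2a1 (0.42, adjusted p = 0.37), Pfkfb3 (-0.02, adjusted p = 0.96), Ldha (0.52, adjusted p = 0.08), Pdk1 (-0.85, adjusted p = 0.064), Hif1a (-0.21, adjusted p = 0.68), Egln3 (-0.85, adjusted p = 0.29), Bnip3 (-0.70, adjusted p = 0.1) and Vegfa (-0.27, adjusted p = 0.44). With the replicate block Ldha (0.003), Pdk1 (0.0044) and Bnip3 (0.012) passed. Of the further genes 5 passed as higher and 0 as lower, with Ier3 2.27 ± 0.19 (adjusted p = 6.5e-09), Bhlhe40 1.96 ± 0.29 (adjusted p = 2.7e-05) and Adora2b 1.52 ± 0.31 (adjusted p = 0.0012). Summed dendritic cell markers were 118 to 225 in MΦ_M2a and 27.3 to 52.8 in MΦ_M0, and their part was not tested.

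Dexamethasone lowered 9 of the 20 glycolytic enzymes and 4 of 5 transporters, and none of either passed as higher. Between MΦ_M2c and MΦ_M0, 16 of 39 members (41%) passed an adjusted p of 0.05, 1 higher and 15 lower, against 20.7% of all genes tested (9.96% higher and 10.7% lower). Over the members the log2 difference had a median of -0.30, against 0.02 over all genes tested. MΦ_M2c and MΦ_M0 lay on different slides, so dexamethasone and slide cannot be told apart. The enzymes that fell were Hk3, Pfkp, Pfkfb4, Aldoc and Tpi1 of upper glycolysis and Pgk1, Eno1, Eno2 and Ldha of lower glycolysis. The other 11, Gapdh, Pkm and Pgam1 among them, did not pass. With normexp background correction the split was 2 higher and 8 lower. Pdk1 fell from 2.11, 1.57 and 1.47 to 0.64, 0.13 and -0.19, a difference of -1.52 ± 0.30 (adjusted p = 0.00054). Slc2a6 went from 0.81, -0.13 and -0.09 to -0.95, -1.06 and -1.40, a difference of -1.33 ± 0.33 (adjusted p = 0.0044). Eno2 went from -1.68, -1.77 and -1.50 to -3.25, -2.94 and -2.66, a difference of -1.30 ± 0.33 (adjusted p = 0.0049). Treated arrays lay below untreated ones for each. Summed dendritic cell markers were 6.60 to 17.0 in MΦ_M2c and 27.3 to 52.8 in MΦ_M0, without overlap, and their part was not tested.

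Slc2a1 fell from 4.46, 4.16 and 3.97 to 3.35, 3.01 and 2.50, a difference of -1.24 ± 0.27 (adjusted p = 0.0014), and Vegfa from 2.14, 1.94 and 1.97 to 0.74, 0.74 and 1.13, a difference of -1.14 ± 0.20 (adjusted p = 0.00012). Ldha fell from 7.60, 7.43 and 7.32 to 7.04, 6.69 and 6.53, a difference of -0.70 ± 0.19 (adjusted p = 0.011), lost without MΦ_M2c replicate 3 (adjusted p = 0.07) or MΦ_M0 replicate 1 (0.056). MΦ_M2c had the lowest group mean of all 12 groups for Vegfa, Slc16a3, Pgk1, Gapdh, Eno1, Pgam1, Pkm and Gpi1, among others. Pdk2 was the one member called higher (0.70 ± 0.10, adjusted p = 1.1e-05), and not with normexp (adjusted p = 0.75). Only 8 of the 16 calls were kept with each array left out, and 9 members passed without either MΦ_M0 replicate 1 or MΦ_M2c replicate 3.

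Hif1a (-0.09, adjusted p = 0.88), Egln3 (-0.85, adjusted p = 0.25), Bnip3 (0.22, adjusted p = 0.67), Hk2 (0.29, adjusted p = 0.28) and Pfkfb3 (0.30, adjusted p = 0.15) did not pass with dexamethasone. Among the further genes 10 passed as higher and 10 as lower. Ddit4, an inhibitor of mTOR signalling known to be induced by glucocorticoids, rose by 5.47 ± 0.29 (adjusted p = 3e-13), while Bhlhe40 differed by -3.05 ± 0.29 (adjusted p = 1.3e-08) and the adenylate kinase Ak4 by -1.65 ± 0.33 (adjusted p = 0.00055). The comparisons of MΦ_M2a, MΦ_M2c, MΦ_IFN-γ, monocytes and Mreg_no IFN-γ all used the same 3 MΦ_M0 arrays.

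With immunoglobulin-coated dishes 2 members passed, a share near that of all genes tested. Between MΦ_M2b and MΦ_IFN-γ, 2 of 39 members (5.13%) passed an adjusted p of 0.05, 2 higher and 0 lower, against 3.96% of all genes tested (2.17% higher and 1.78% lower), and the median log2 difference was 0.20 over the members and 0.00 over all genes tested. With the series number as a block 6 of 39 passed, against 6.3% of all genes tested. Slc2a3 rose from -2.61, -2.23 and -2.12 to -0.58, -0.34 and -0.04, by 2.00 ± 0.24 (adjusted p = 1.4e-05), with no overlap, although the mean of all its probes gave an adjusted p of 0.097. Egln3 rose from -5.47, -6.52 and -6.19 to -2.39, -3.26 and -3.92, by 2.87 ± 0.49 (adjusted p = 0.00078), from a group with 1 array above background, and not with normexp (adjusted p = 0.33). The other central genes did not pass, from Hk2 at -0.13 (adjusted p = 0.83), Hif1a at -0.08 (adjusted p = 0.95) and Pdk1 at -0.04 (adjusted p = 0.98) to Ldha at 0.16 (adjusted p = 0.8), Pfkfb3 at 0.22 (adjusted p = 0.53), Vegfa at 0.27 (adjusted p = 0.59), Slc2a1 at 0.43 (adjusted p = 0.5) and Bnip3 at 0.68 (adjusted p = 0.21), the last with an adjusted p of 0.034 under the replicate block. Of the further genes 3 passed as higher and 1 as lower, with Stc2 1.84 ± 0.47 (adjusted p = 0.023) and Hilpda 1.68 ± 0.30 (adjusted p = 0.0014).

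Mo-DC held higher levels of Hk2, Hif1a and 4 of 5 transporters than macrophages given the same IFN-γ. Of the other hexokinases Hk1 was higher (0.40 ± 0.13 (adjusted p = 0.016), lost with either of 2 arrays left out) and Hk3 was lower (-0.67 ± 0.11 (adjusted p = 1.2e-05)). Between Mo-DC and MΦ_IFN-γ, 24 of 39 members (61.5%) passed an adjusted p of 0.05, 20 higher and 4 lower, against 47.6% of all genes tested (22.4% higher and 25.2% lower). Over the members the log2 difference had a median of 0.41, against -0.04 over all genes tested. Hypoxia response genes outside oxygen sensing were higher in 4 of 7 cases, with Vegfa lower, and all 3 oxygen sensing genes were higher. The 2 groups differ in growth factor and in IL-4 over the whole culture. Summed dendritic cell markers, 388 to 605 in Mo-DC and 6.84 to 20.2 in MΦ_IFN-γ, moved with the comparison. Other marker lists were separate too, among them Ly6C monocyte (14.2 to 66.2 against 275 to 296) and macrophage markers (122 to 177 against 357 to 391). The part of these markers in the comparison was not tested.

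Egln3 read 0.01, -0.99 and -1.92 in Mo-DC and -5.47, -6.52 and -6.19 in MΦ_IFN-γ, 5.09 ± 0.49 (adjusted p = 2.4e-09) higher, with the lower group near background. Ldhb read 4.82, 4.71 and 5.26 against 2.03, 1.61 and 1.39, 3.26 ± 0.29 (adjusted p = 7.8e-10) higher, the highest group mean of this gene. Slc2a6 read 2.24, 2.55 and 1.11 against -0.07, -0.26 and 0.53, 1.90 ± 0.33 (adjusted p = 3e-05) higher. All Mo-DC arrays were above all MΦ_IFN-γ arrays for these genes.

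Hk2 was at 6.58, 6.08 and 6.41 against 4.60, 4.54 and 4.42, 1.84 ± 0.18 (adjusted p = 2.5e-09) higher. Hif1a was at 4.77, 4.22 and 4.20 against 2.91, 2.85 and 2.40, 1.68 ± 0.25 (adjusted p = 3e-06) higher, and Slc2a1 at 5.99, 5.78 and 5.68 against 4.65, 4.39 and 4.07, 1.45 ± 0.27 (adjusted p = 7.5e-05) higher. Mo-DC had the highest group mean of the 12 groups for each of these 3 genes. Besides Hk3, the members called lower were Pfkfb3, Vegfa and Pfkm (-0.43 ± 0.17 (adjusted p = 0.042)), the last call being lost without any of 4 arrays. Pfkfb3 read 3.06, 2.97 and 3.30 against 4.01, 4.07 and 4.04, a difference of -0.93 ± 0.14 (adjusted p = 6e-06), and Vegfa read 2.72, 2.52 and 2.42 against 3.03, 3.28 and 3.37, a difference of -0.67 ± 0.20 (adjusted p = 0.0061). Ldha (0.41, adjusted p = 0.082), Bnip3 (0.18, adjusted p = 0.63) and Pdk1 (-0.23, adjusted p = 0.56) did not pass.

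In all, 17 of the 24 calls in Mo-DC were kept with each array left out. Among the further genes 26 passed as higher and 9 as lower, and the gluconeogenic enzyme Fbp1 was 10.05 ± 0.59 (adjusted p = 2e-13) higher, with 1 of 3 MΦ_IFN-γ arrays above background. Bhlhe40 was 4.87 ± 0.29 (adjusted p = 2.3e-13) and Hilpda 3.06 ± 0.30 (adjusted p = 4.5e-09) higher.

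Few members passed in the main fit when unsorted cells were the starting material. Between Mreg_unpurified and Mreg, 5 of 39 members (12.8%) passed an adjusted p of 0.05, 5 higher and 0 lower, against 12.1% of all genes tested (6.67% higher and 5.39% lower), close to the background share in that fit, and the median log2 difference was 0.38 over the members and 0.10 over all genes tested. The 5 were Aldoa, Gpi1, Pgk1, Gapdh and Pdk3, by 0.51 to 0.77 on the log2 scale, and Pdk3 alone kept its call with each array left out. Only 1 member passed without Mreg replicate 2, without Mreg replicate 3 or without Mreg_unpurified replicate 2. In a fit of these 6 arrays alone 0 members passed, but so did 0 of all genes tested. With slide as a random block 15 of 39 members passed, against 20.3% of all genes tested. Egln3 read 1.98, 2.34 and 1.04 against 1.03, 0.56 and 0.73, a difference of 1.01 ± 0.49 (adjusted p = 0.18). Differences of the other central genes, none called, ran from 0.06 for Pfkfb3 (adjusted p = 0.83), 0.18 for Vegfa (adjusted p = 0.61) and 0.38 for Hif1a (adjusted p = 0.33) to 0.45 for Hk2 (adjusted p = 0.098), 0.45 for Ldha (adjusted p = 0.13), 0.51 for Slc2a1 (adjusted p = 0.22), 0.62 for Bnip3 (adjusted p = 0.15) and 0.75 for Pdk1 (adjusted p = 0.1). Of the further genes 3 passed as higher and 1 as lower. The summed erythroid and megakaryocyte markers, mostly Pf4, ran from 77.1 to 444 in Mreg_unpurified and from 56.6 to 74.8 in Mreg, and their part was not tested.

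**Figure D5:**
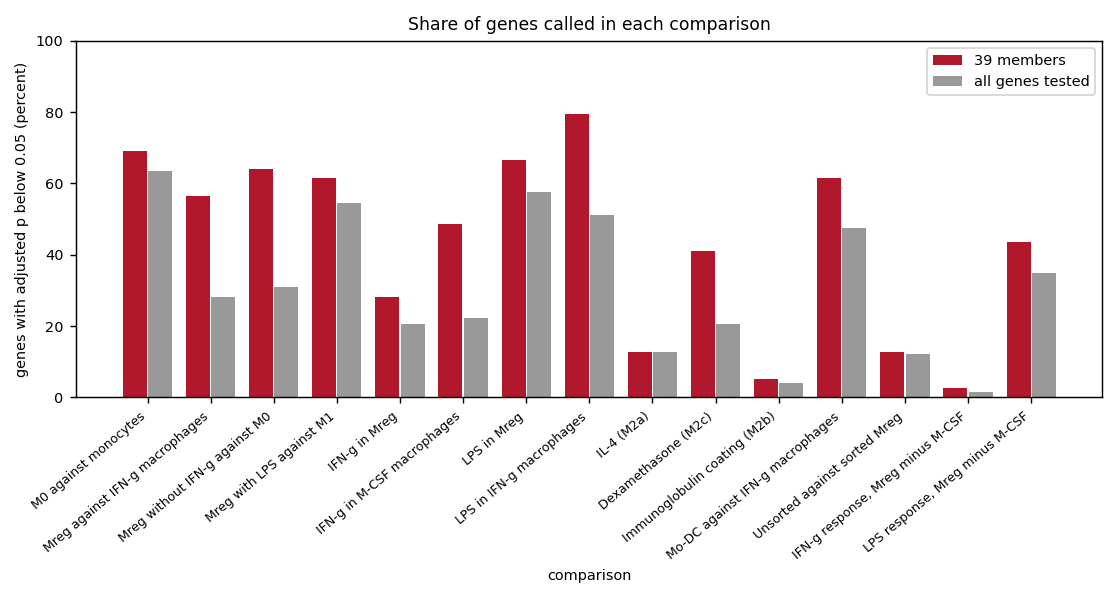
Percent of genes with an adjusted p below 0.05 in each comparison of the main fit, for the 39 members (red) and for all genes tested (grey). The members' share stands furthest above the background for Mreg_no IFN-γ against MΦ_M0 (64.1% against 31%) and equals or nearly equals it for IL-4 (12.8% against 12.6%) and for unsorted cells (12.8% against 12.1%).

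Enzymes of the central pathway formed the closest pairs across groups. As a description over 12 group means, which share arrays and scaling, Pearson's r was 0.952 between Aldoa and Ldha, 0.95 between Tpi1 and Pgk1 and 0.948 between Gapdh and Pgk1. P4ha1 and P4ha2 had r = 0.924. Slc2a1 was most like Pgam1 (0.92), Hk2 most like Hif1a (0.732), and Pfkfb3 most like Adm (0.777). At the other end, Slc2a6 and Pfkm had r = -0.918.

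The probes used for the genes that lead these results lie, in the coordinates of the files (build mm8), at chr12:55101592-55101651 for Egln3, chr2:26843637-26843696 for Slc2a6, chr17:45482144-45482203 for Vegfa, chr2:11389805-11389864 for Pfkfb3, chr12:74865120-74865180 for Hif1a and chr7:138729737-138729796 for Bnip3. No annotation of that build was used here, so exon and UTR are not given. Where a gene had several probes that passed, they mostly moved together. Exceptions were Hk1, where 1 of 5 other probes had the opposite sign in 3 of 7 calls, and Aldoc, Gpi1, Pfkp and Vegfa, where 1 other probe had it in 1 call. The 2 dim probes of Slc2a3 had it in 4 of 11 calls each, and 1 of them is placed on a different chromosome from the gene. For Pkm, 1 other probe had r = 0.553 with the probe used over the 12 groups, and its log2 differences departed by up to 1.43. Whether the probes of Pkm separate its isoforms was not examined.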

How the data were processed

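RNA of 36 samples in 12 groups of 3 was hybridised to 1-colour Agilent arrays, and groups were taken from the sample labels. The authors deposited scanner files whose processed intensity is already background-corrected, per the file headers, and a series table of log2 values, whose scale and centring were found by setting it against the scanner files (correlation at least 0.9974). Here log2 of the processed intensity was set relative to the 75th percentile of each array (321 to 648), a probe had to be well above background on at least 3 arrays, and each gene was read from its brightest probe, leaving 17599 genes. Comparisons were fitted in limma 3.58.1 over all groups (lmFit and eBayes, R 4.3.3), with Benjamini-Hochberg adjustment over all genes and calls at an adjusted p of 0.05. The number of arrays limits the precision. The script was tested on simulated data.

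Members and lists were chosen with earlier results of these data known. In each comparison the genes named are up to 3 rises and 3 falls, the largest among calls of at least 2-fold whose groups do not overlap, and always Slc2a1, Hk2, Pfkfb3, Ldha, Pdk1, Pdk4, Hif1a, Egln3, Bnip3 and Vegfa. Up to 3 called genes of at least 2-fold were named from the further list, of which 1 is not reported here, and promoters were printed for the members of widest range. Alternatives were normexp background correction, quantile normalization, other filters on dim probes, the mean of all probes, the authors' series table, a replicate block, slide as a random block, a single scan day, only the groups compared, and each array left out. Same-numbered samples deviated together in 7 comparisons, taken as paired (correlations of 0.105 or more): IFN-γ and LPS in both cultures, IL-4, dexamethasone and immunoglobulin. The main fit did not use this pairing, which enters only through the replicate block. Same-numbered samples also shared a slide for IFN-γ and LPS in Mreg, IL-4 and immunoglobulin. In every group replicate 1 was scanned on a different day from replicates 2 and 3. Pairing, slide and scan day were not told apart.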

Additional observations from a re-analysis of the deposited data

Results flagged for a closer look

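The IFN-γ response of Vegfa differed between the cultures, with that of Mreg lower by a log2 difference of -1.39 than that of M-CSF macrophages. The call was kept with each array left out in turn, but not under every alternative processing.

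LPS responses differed between the cultures for 16 members that had an array above background in every group compared. Egln3 was near background in MΦ_IFN-γ. The response in Mreg minus that in M-CSF macrophages was -4.60 for Egln3, -2.50 for Slc16a3, -1.70 for P4ha2, -1.32 for Hk1, -1.24 for Egln1, -1.20 for Slc2a1, -1.09 for Slc2a3, -0.99 for Eno1 and -0.74 for Pfkfb4. It was 0.40 for Pdk2, 0.62 for Pdk3, 1.07 for Hif1a, 1.19 for Ldhb, 1.22 for Pfkfb3, 1.66 for Vegfa and 1.96 for Slc2a6. Each passed limma's test of the difference itself at an adjusted p of 0.05. For the IFN-γ and the LPS response alike, the Mreg groups lay on the same slides and the M-CSF groups on different ones. Stimulus and slide cannot be told apart in the M-CSF part of these differences. The calls of Ldhb, Pdk2 and Pdk3 were the least stable, kept in 7, 4 and 4 of 12 fits that each left out an array.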

How the results depend on the processing

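Over 9648 alternative values of the members' differences, 8865 kept their direction and side of the threshold, 444 lost a call, 316 gained one and 23 changed sign. Sign changes came with quantile normalization and, second, the authors' series table. For LPS in Mreg they were Gpi1 (-0.58 and -0.58), Aldoa (-0.077 and -0.076), Tpi1 (-0.15 and -0.15), Gapdh (-0.028 and -0.026), Pgk1 (-0.44 and -0.43), Pgam1 (-0.53 and -0.53) and Ldha (-0.051 and -0.051), and for LPS in M-CSF macrophages Hk3 (-0.30 and -0.31), Gpi1 (-0.25 and -0.25) and Aldoa (-0.24 and -0.24). With the mean of all probes Slc2a3 was -0.13 between Mreg_+LPS and MΦ_M1 and 0.83 for LPS in M-CSF macrophages. With normexp the LPS responses of Pdk4, below background, differed by 0.008. The causes were not tested. Counts of members called moved by over 1.5 times as follows. Between Mreg_+LPS and MΦ_M1, 15 passed with only the groups compared. For IFN-γ in Mreg, 7 passed on a single scan day. For IL-4, 10 passed with quantile normalization, 10 in the authors' series table, 11 with the replicate block and 11 with slide as a random block. The shares of all genes tested in these fits were 13.4%, 13.4%, 17% and 18.7%. For dexamethasone, 10 passed with normexp. For immunoglobulin, 1 passed with normexp, 4 with quantile normalization, 1 with the mean of all probes, 4 in the authors' series table, 6 with the replicate block and 4 with slide as a random block. For unsorted cells, whose numbers were not taken as pairing, 1 passed with normexp, 1 with quantile normalization, 2 with no filter, 1 in the authors' series table, 16 with the replicate block, 15 with slide as a random block, 16 on a single scan day and 0 with only the groups compared. The last 4 of these fits called 19.2%, 20.3%, 11.8% and 0 of all genes tested. For the difference of IFN-γ responses, 2 passed with quantile normalization, 2 in the authors' series table, 2 with the replicate block and 4 with only the groups compared. The replicate block moved no other count by over 1.5 times. With each array left out, counts ran from 24 to 27 for MΦ_M0 against monocytes, 15 to 21 for Mreg against MΦ_IFN-γ, 22 to 23 for Mreg_no IFN-γ against MΦ_M0, 22 to 26 for Mreg_+LPS against MΦ_M1, 6 to 12 and 14 to 19 for IFN-γ in Mreg and M-CSF macrophages, and 22 to 25 and 26 to 31 for LPS in the same cultures. They ran from 2 to 4 for IL-4, 9 to 15 for dexamethasone, 2 to 2 for immunoglobulin, 19 to 24 for Mo-DC, 1 to 6 for unsorted cells, 1 to 1 for the difference of IFN-γ responses and 13 to 17 for that of LPS responses. Signal limits Pdk4, above background in Mreg_no IFN-γ alone, and Egln3 in MΦ_IFN-γ, above it on 1 array of 3.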
